A study of Mus musculus with 6 samples.

Results

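The transcripts described here are 10 immediate-early genes outside the AP-1 family: Egr1, Egr2, Egr3, Nr4a1, Nr4a2, Nr4a3, Ier2, Ier3, Ier5 and Myc. They were chosen by name as serum-response genes, and each symbol matched 1 of the 24411 gene rows in the files. All 10 passed the filter on low counts, out of 10124 genes that did. They were measured by strand-specific RNA-seq in primary microglia, the resident macrophages of the brain, in 2 groups of 3 libraries. The first group received FTY720 (fingolimod, a sphingosine analogue) at 1 µM together with 10 ng/ml of lipopolysaccharide (LPS, the endotoxin of Gram-negative bacteria, sensed by Toll-like receptor 4), and the second received FTY720 at 1 µM alone, both for 4 h. All libraries therefore carry FTY720, and no untreated or LPS-only library was analysed here, so values show what LPS does in the presence of FTY720. Per the labels' protocols the cells came from 3-day-old ICR mice, whose brains were pooled (12 animals), and were shaken off mixed glial flasks, with over 92% of them positive for CD11b. The labels call the replicates biological triplicates on independent RNA samples and do not say whether they came from separate pools or cultures, so p-values below measure the spread between these RNA samples.

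Immediate-early genes are transcribed within minutes of a stimulus without new protein synthesis, because the factors that drive them are already in the cell: serum response factor with its Elk and MRTF partners, CREB, and in macrophages NF-kappaB. Many of their transcripts are short-lived, and several encode transcription factors that start a later wave of genes. The Egr proteins are zinc-finger factors that bind GC-rich sites and are held back by the Nab corepressors. The Nr4a proteins are orphan nuclear receptors, of which Nr4a2 is known in mouse microglia to restrain inflammatory genes together with CoREST. Ier2 and Ier5 are related nuclear proteins, Ier3 is an unrelated regulator of cell survival and a known NF-kappaB target, and Myc is the growth-regulating factor that binds DNA with Max.

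Promoter sequence of 6 of the 10 genes was found in RefSeq (build GRCm38.p6), and the motif matches in it are shown because genes of one family moved in opposite directions. The stretches below lie on the gene's own strand, before the first annotated exon base of that promoter, and positions count back from the RefSeq start. The Egr2 and Nr4a1 stretches lie inside the annotated gene spans. For Nr4a1 the RefSeq start used is an internal one, 12577 bases from the start of the main GENCODE transcript. For Egr2 that distance is 0. Capitals mark matches to a serum response element (CArG box), a cAMP response element half-site TGACG, the whole element TGACGTCA, an Egr site GCGNGGGCG, an NF-kappaB site, an Nr4a site AAAGGTCA, a TATA box TATAAA or an Ets site CCGGAA, on either strand.
Egr2, chr10:67537758-67537857, plus strand: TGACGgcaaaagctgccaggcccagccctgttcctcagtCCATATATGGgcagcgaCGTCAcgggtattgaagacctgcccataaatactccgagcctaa
Nr4a1, chr15:101266721-101266820, plus strand: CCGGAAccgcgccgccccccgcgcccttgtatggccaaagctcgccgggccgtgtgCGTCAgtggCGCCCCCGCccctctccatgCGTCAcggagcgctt
Nr4a2, chr2:57124068-57124167, minus strand: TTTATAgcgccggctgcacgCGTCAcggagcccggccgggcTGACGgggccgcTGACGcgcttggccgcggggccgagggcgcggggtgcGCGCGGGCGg
Nr4a3, chr4:48045055-48045152, plus strand: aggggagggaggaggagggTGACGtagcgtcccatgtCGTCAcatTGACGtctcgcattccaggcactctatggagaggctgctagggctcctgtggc
Ier3, chr17:35821584-35821683, plus strand: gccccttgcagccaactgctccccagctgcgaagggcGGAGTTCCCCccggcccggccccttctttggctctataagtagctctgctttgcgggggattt
Ier5, chr1:155099637-155099736, minus strand: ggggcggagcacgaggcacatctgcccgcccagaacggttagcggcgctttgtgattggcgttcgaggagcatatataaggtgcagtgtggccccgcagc

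In the 250 bases before the start, the half-site TGACG occurred in 4 of the 6 promoters, against 17.8% of 32851 RefSeq promoters searched the same way. Nr4a1, Nr4a2 and Nr4a3 held 4 half-sites each and Egr2 held 2. The CArG box was found in Egr2 at positions -72 to -63, against 1.47% of all promoters. The NF-kappaB site was found in Ier3 at -92 to -83, against 7.25% of all promoters. Nr4a1 and Nr4a2 each held an Egr site, found in 4.70% of all promoters. The whole element TGACGTCA (1.55% of all promoters) and the Nr4a site (1.34%) were in none of the 6. Ier5 held none of the motifs searched. The exact string TATAAA and the Ets site, in 12.4% and 12.0% of all promoters, were in 1 of the 6 each, Nr4a2 and Nr4a1. The Nr4a2 match lay on the opposite strand at -164 to -159 and is not shown to be a working TATA box. Variants such as TATAAG, present in the Ier3 and Ier5 stretches above, were not searched. In Nr4a3 annotated exon sequence covers 152 of the 250 bases, and the half-site at -147 to -143 lies in it. Whether the half-sites bear on the direction of change was not tested. These are matches of letters in a window, not shown sites.

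Gene reads numbered 2431775 to 3454647 per library, and 1 read was worth 0.235 to 0.501 CPM (counts scaled to library size with TMM factors). Reads on Rn45s, Lars2 and Mir6236, which collect rRNA-like sequence, took 38.2% to 44.9% of gene reads in FTY720+LPS libraries and 28.8% to 59.0% in FTY720 libraries. FTY720 replicate 3 had the 28.8%. The 10 genes together held 1323, 1222 and 1192 reads in FTY720+LPS libraries, against 741, 671 and 896 in FTY720 libraries. Counting error is therefore large for the weakest of them.

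Of the 10 genes, 5 were higher with LPS (Ier3, Ier5, Nr4a3, Egr1 and Ier2), 4 were lower (Egr2, Nr4a2, Nr4a1 and Egr3), and Myc did not pass the test. Calls are edgeR quasi-likelihood tests with Benjamini-Hochberg adjustment over all genes tested and a threshold of 0.05. By the same rule 23.3% of all tested genes were higher and 22.7% lower. The groups of 3 libraries did not overlap for 9 of the 10 genes, against 54.0% of all tested genes. The median log2 fold change was 0.29 over the 10 and -0.04 over all tested genes. The shares also depended on expression level. In the band of mean log2 CPM from 3 to 4 that holds Egr2, Egr3, Nr4a2 and Nr4a3, 11.9% of genes were higher and 27.5% lower. From 4 to 5, with Egr1 and Nr4a1, 17.6% were higher and 23% lower. From 5 to 6, with Ier2 and Ier5, 30% were higher and 20.8% lower. From 7 to 8, with Ier3, 67.2% were higher and 10.3% lower. With the trend of each library on expression level removed, the log2 fold change of Ier3 was 1.76. The split between higher and lower calls over all genes depends on scaling: 50.7% of calls were higher with TMM, 38.8% with upper-quartile factors (median shift -0.13), 22.2% with total library size alone (median shift -0.32) and 61.6% with DESeq2. The direction of each of the 10 genes was the same under all of these.

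**Figure D1:**
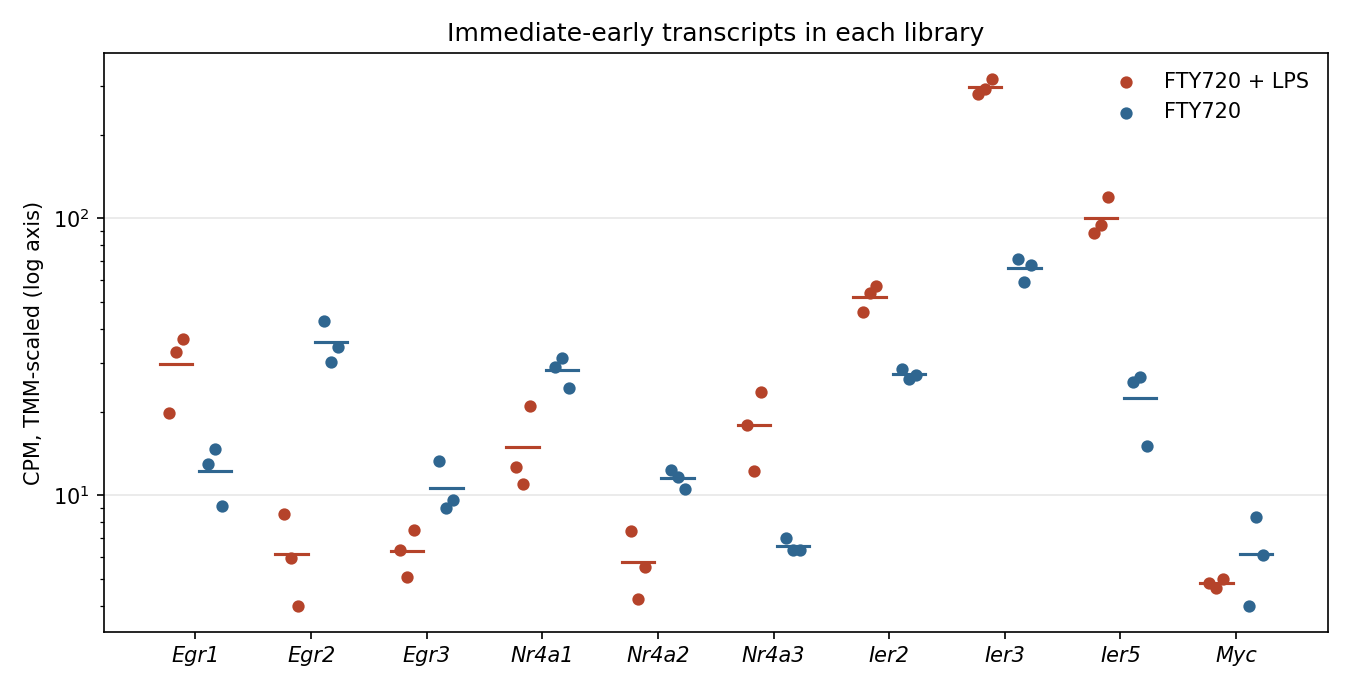
Level of each gene in each library, in CPM on a log axis, with FTY720+LPS in red on the left and FTY720 in blue on the right of each pair, and a bar at the mean of the 3 libraries. The groups separate for every gene but Myc, upward for Egr1, Nr4a3, Ier2, Ier3 and Ier5 and downward for Egr2, Egr3, Nr4a1 and Nr4a2.

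**Figure D2:**
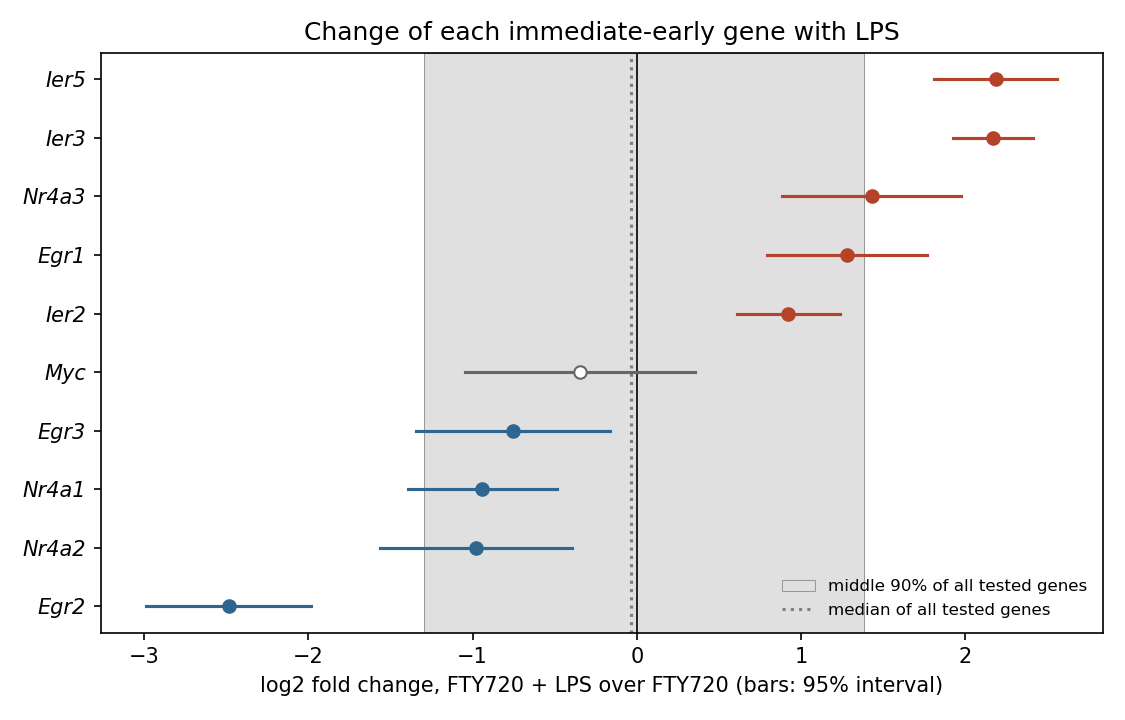
Log2 fold change of each gene, FTY720+LPS over FTY720, with its 95% interval (edgeR). The grey band and the dotted line show where most tested genes and their median lie. Egr2, at -2.49, stands at the low end, and Ier3 and Ier5, at 2.17 and 2.18, at the high end.

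Within the Egr family, Egr2 fell and Egr1 rose with LPS. Egr2, also called Krox20, is known for its part in Schwann cell myelination and in mouse macrophages for marking the alternatively activated state. It had 8.58, 5.92 and 4.00 CPM in FTY720+LPS libraries (replicates 1, 2 and 3), against 42.7, 30.4 and 34.4 CPM in FTY720 libraries. The highest FTY720+LPS library lay below the lowest FTY720 library by a wide margin. The means were 6.17 ± 2.30 CPM with LPS and 35.8 ± 6.29 CPM without (SD, n = 3 each), a log2 fold change of -2.49 ± 0.24 (SE) or 5.60-fold lower with LPS (edgeR adjusted p = 1.48e-08). This change lay at the 0.405th percentile of all tested genes. It rests on 45 reads in the FTY720+LPS group and 365 in the FTY720 group. The gene lies at chr10:67535475-67542188.

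Egr1 is the family member most widely used as a read-out of ERK signalling to the serum response element. It lies at chr18:34859823-34864984 and had 19.8, 33.0 and 36.5 CPM in FTY720+LPS libraries, against 13.0, 14.7 and 9.18 CPM in FTY720 libraries. The groups did not overlap, although FTY720+LPS replicate 1 stood nearer to the FTY720 libraries than replicates 2 and 3 did. LPS gave a log2 fold change of 1.28 ± 0.24 (SE), 2.43-fold higher with LPS (edgeR adjusted p = 1.20e-04), from means of 29.8 ± 8.84 CPM with LPS and 12.3 ± 2.82 CPM without (SD, n = 3 each). Without FTY720+LPS replicate 1 it was 1.55, and without FTY720 replicate 3, the library with the lowest Egr1, it was 1.08.

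Egr3, a related factor with roles in muscle spindles and lymphocytes, was lower with LPS by a small margin. It had 6.34, 5.08 and 7.51 CPM in FTY720+LPS libraries, against 13.3, 9.01 and 9.65 CPM in FTY720 libraries. The highest FTY720+LPS library came close to the lowest FTY720 library without reaching it. The log2 fold change was -0.76 ± 0.29 (SE), with a 95% interval of -1.35 to -0.17 (edgeR adjusted p = 0.0342). The call was lost without FTY720+LPS replicate 1 (-0.74, adjusted p = 0.101), without FTY720+LPS replicate 2 (-0.61, 0.152) and without FTY720 replicate 1 (-0.58, 0.163), with DESeq2 (adjusted p = 0.190), and when the trend of each library on expression level was removed (-0.49, 0.185). It is thus the least firm of the 9 calls. Egr4, the remaining member, had 0 reads in the FTY720+LPS group and 1 read in the FTY720 group and was not tested.

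The make-up of the Egr reads, which does not depend on how libraries are scaled, differed between the groups. Egr1 took 57.0%, 75.0% and 76.0% of the reads of the 3 genes in FTY720+LPS libraries, against 18.8%, 27.2% and 17.3% in FTY720 libraries. Egr2 took 24.7%, 13.5% and 8.33% in FTY720+LPS libraries, against 61.8%, 56.2% and 64.6% in FTY720 libraries. Egr1 was the majority transcript by reads in every FTY720+LPS library and Egr2 in every FTY720 library. The ratio of Egr1 to Egr2 reads was 2.30, 5.57 and 9.12 in FTY720+LPS libraries, against 0.305, 0.484 and 0.267 in FTY720 libraries. The share of Egr3 was 15.1% ± 3.40 with LPS and 18.04% ± 1.33 without (SD, n = 3 each), and the groups overlapped (exact two-sided permutation p = 0.3). The other 2 shares gave an exact permutation p = 0.1, the smallest that 3 against 3 libraries allow, and 0.129 after adjustment over 9 shares. The ratio gave the same exact permutation p = 0.1. Its 2 genes were paired because they had moved apart in these data, so the ratio is a description and not a further test.

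**Figure D3:**
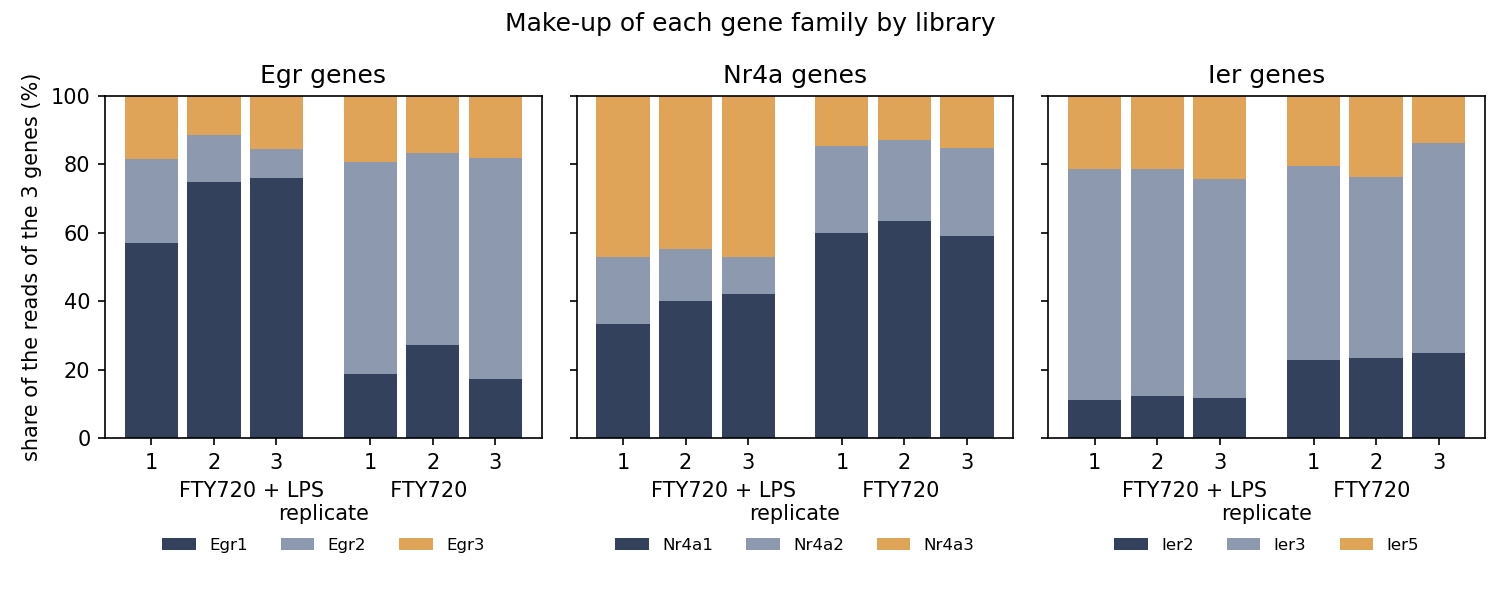
Share of each gene in the sense reads of its family, in percent, for replicates 1 to 3 of FTY720+LPS (left) and FTY720 (right). Egr1 is the main Egr transcript by reads in FTY720+LPS libraries and Egr2 in FTY720 libraries, and Nr4a3 takes 44.6% to 47.1% of Nr4a reads in FTY720+LPS libraries against 12.8% to 15.3% in FTY720 libraries.

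The Nr4a family divided too, with Nr4a3 higher and Nr4a1 and Nr4a2 lower with LPS. Nr4a3 (NOR1) had 17.9, 12.3 and 23.5 CPM in FTY720+LPS libraries, against 7.01, 6.34 and 6.36 CPM in FTY720 libraries. The FTY720 libraries lay close together, and each FTY720+LPS library was above them. Its change was log2 1.43 ± 0.26 (SE), 2.69-fold higher with LPS (edgeR adjusted p = 1.21e-04), on 124 reads in the FTY720+LPS group and 67 in the FTY720 group. The gene lies at chr4:48045153-48086447.

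Nr4a1 (Nur77), the receptor most studied in macrophages and in monocyte survival, had 12.7, 11.0 and 21.03 CPM in FTY720+LPS libraries, against 29.0, 31.4 and 24.5 CPM in FTY720 libraries. FTY720+LPS replicate 3 came near the lowest FTY720 library without reaching it. The log2 fold change was -0.94 ± 0.22 (SE), 1.92-fold lower with LPS (edgeR adjusted p = 0.00128). Without FTY720+LPS replicate 3 it was -1.22. The gene lies at chr15:101254269-101274795.

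Nr4a2 (Nurr1), needed for midbrain dopamine neurons and the member tied to CoREST in glia, had 7.46, 4.23 and 5.51 CPM in FTY720+LPS libraries, against 12.3, 11.7 and 10.6 CPM in FTY720 libraries. The groups did not overlap. This gave a log2 fold change of -0.98 ± 0.28 (SE), 1.97-fold lower with LPS (edgeR adjusted p = 0.00681), on 41 reads in the FTY720+LPS group and 117 in the FTY720 group. The call was lost without FTY720+LPS replicate 2 (-0.78, adjusted p = 0.0569) and with DESeq2 (-0.96, adjusted p = 0.0672). The gene lies at chr2:57106830-57124003 on the minus strand.

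Nr4a3 took 47.1%, 44.6% and 47.0% of Nr4a reads in FTY720+LPS libraries, against 14.5%, 12.8% and 15.3% in FTY720 libraries. Nr4a1 took 33.3%, 40.0% and 42.0% in FTY720+LPS libraries, against 60.0%, 63.5% and 59.1% in FTY720 libraries. Nr4a3 had more reads than Nr4a1 in every FTY720+LPS library, at ratios of 1.12 to 1.41, and fewer in every FTY720 library, at 0.202 to 0.260. The share of Nr4a2 was lower as well, at 15.3% ± 4.30 in FTY720+LPS libraries, against 24.9% ± 1.09 in FTY720 libraries (SD, n = 3 each), with no overlap. Each of these 3 shares gave the smallest exact permutation p of 0.1. Total Nr4a reads were 102, 65 and 100 in FTY720+LPS libraries, against 145, 148 and 176 in FTY720 libraries, so each share carries a wide counting error.

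Markers of other brain cells did not all move the same way. The tested oligodendrocyte-lineage and neuronal markers were lower with LPS. Astrocyte markers were mixed, and no tested fibroblast or endothelial marker was called. For the marker counts here, the shares over all tested genes were 23.3% higher and 22.7% lower. Of the oligodendrocyte-lineage markers (Olig1, Olig2, Sox10, Mbp, Mog), 4 of 5 were tested and all 4 were lower with LPS, and the summed level of the 5 was 89.5 to 107.1 CPM in FTY720+LPS libraries against 188.6 to 191.6 CPM in FTY720 libraries. Of 6 neuronal markers 3 were tested and all 3 were lower, with sums of 97.6 to 109.7 CPM in FTY720+LPS libraries against 179.5 to 241.3 CPM in FTY720 libraries. None of these markers was at 0 reads over the 6 libraries. Of 6 astrocyte markers 2 were higher and 1 lower, at 100.3 to 140.2 CPM in FTY720+LPS libraries against 86.1 to 105.2 CPM in FTY720 libraries. Of 7 fibroblast and endothelial markers 3 were tested and none was called, at 21.2 to 33.5 CPM with LPS against 18.8 to 25.0 CPM without; Cldn5 had 2 reads in the FTY720+LPS group and 0 in the FTY720 group. Microglial markers were far more abundant, at 2176 to 2494 CPM in FTY720+LPS libraries against 1472 to 1628 CPM in FTY720 libraries, with 6 of 7 tested markers higher and none lower. In bulk RNA fewer cells of a type and less RNA per cell cannot be told apart. The part of other cells in the lower levels of Egr2, Egr3, Nr4a1 and Nr4a2 was not tested. The tested microglial markers had a median log2 fold change of 0.74, beside 0.92 for Ier2. The part of cell make-up in the 5 higher genes was not tested either.

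The 3 Ier genes were all higher with LPS. Ier3 (IEX-1) had 281.6, 292.8 and 317.4 CPM in FTY720+LPS libraries, against 71.4, 59.1 and 67.8 CPM in FTY720 libraries. The replicates of each group lay close together, and the groups were far apart. The log2 fold change was 2.17 ± 0.12 (SE), 4.49-fold higher with LPS (edgeR adjusted p = 4.53e-13), on 2081 reads in the FTY720+LPS group and 679 in the FTY720 group, which makes it the best measured of the 10. Ier3 lies at chr17:35821684-35822923, and its promoter is the one with the NF-kappaB match above.

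Ier5, which binds the phosphatase PP2A and promotes the activity of heat shock factor 1, had 88.4, 94.3 and 119.1 CPM in FTY720+LPS libraries, against 25.7, 26.7 and 15.1 CPM in FTY720 libraries. Each FTY720+LPS library lay far above every FTY720 library. The change was log2 2.18 ± 0.18 (SE), 4.54-fold higher with LPS (edgeR adjusted p = 8.62e-10), and 1.93 without FTY720 replicate 3, where Ier5 was lowest. The gene is a single exon at chr1:155096361-155099636 on the minus strand.

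Ier2, a nuclear protein with a single-exon gene at chr8:84661331-84662852, had 45.9, 53.7 and 57.1 CPM in FTY720+LPS libraries, against 28.7, 26.4 and 27.3 CPM in FTY720 libraries. The groups did not overlap, and the change was smaller than for the other Ier genes. This was a log2 fold change of 0.92 ± 0.15 (SE), 1.89-fold higher with LPS (edgeR adjusted p = 3.38e-05). With libraries scaled by total size alone it was 0.60 and not called (adjusted p = 0.0970).

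Of the reads of the 3 Ier genes, Ier2 took 11.6% ± 0.579 with LPS and 23.7% ± 1.00 without, and Ier3 took 66.1% ± 1.72 with LPS and 57.0% ± 4.43 without (SD, n = 3 each; exact permutation p = 0.1, the smallest possible, for both). The share of Ier5 was 22.3% ± 1.62 with LPS and 19.3% ± 5.16 without, and the groups overlapped (exact permutation p = 0.4). Ier2 thus rose in CPM while its share of Ier reads was lower in every FTY720+LPS library.

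Myc was scarce and gave no call. It had 4.85, 4.65 and 5.01 CPM in FTY720+LPS libraries, against 4.00, 8.35 and 6.12 CPM in FTY720 libraries. The FTY720+LPS values fell inside the range of the FTY720 values. The log2 fold change was -0.35 ± 0.34 (SE), with a 95% interval of -1.05 to 0.35 (edgeR adjusted p = 0.416), on 34 reads in the FTY720+LPS group and 63 in the FTY720 group. The gene lies at chr15:61985391-61990374.

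Genes that act with Myc were mixed. Of 15 network genes 12 were tested, 2 were higher and 3 lower (median log2 fold change -0.11). Over all tested genes 23.3% were higher and 22.7% lower, so neither count is far from the overall share. Mxd1, a Max partner that opposes Myc, was higher (54.8 ± 8.27 CPM with LPS, 23.3 ± 3.34 CPM without, log2 fold change 1.24 ± 0.17, edgeR adjusted p = 1.98e-06). Mnt, another such partner, was lower (5.62 ± 1.13 CPM with LPS, 13.3 ± 4.95 CPM without, -1.18 ± 0.32, adjusted p = 0.00448). Fbxw7, the ubiquitin ligase subunit that marks Myc for degradation, was higher (28.0 ± 1.62 CPM with LPS, 15.9 ± 0.817 CPM without, 0.81 ± 0.18, adjusted p = 9.05e-04), but not with total library size alone (0.50, adjusted p = 0.195). Max itself had a log2 fold change of -0.13 and was not called.

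Of 16 genes known as Myc targets 15 were tested, 7 were higher and 1 lower, with a median of 0.18. The shares over all tested genes were 23.3% higher and 22.7% lower. Scaling by total library size left 4 of the targets higher. Odc1, the first enzyme of polyamine synthesis, had 166.4 ± 9.79 CPM with LPS and 40.6 ± 4.16 CPM without (2.03 ± 0.13, edgeR adjusted p = 5.92e-12). The nucleolar proteins Nop56 (88.2 ± 13.0 CPM with LPS, 23.7 ± 2.31 CPM without, 1.89 ± 0.15) and Ncl (151.0 ± 20.2 CPM with LPS, 56.9 ± 12.6 CPM without, 1.41 ± 0.15) rose as well (adjusted p = 5.31e-10 and 4.41e-08). The gene that fell was Cdk4, named after its value was seen (-1.12 ± 0.14, adjusted p = 6.83e-07). Myc itself was too weakly covered to show whether its transcript changed, and its part in the levels of these targets was not tested.

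All 13 tested genes for serum response factor, its Elk and MRTF partners, CREB, its Crtc coactivators and Mef2 gave 1 higher and 3 lower (median log2 fold change -0.32), against 23.3% of all tested genes higher and 22.7% lower, so the lower count is near the overall share. Srf, the factor that binds the CArG box, was the higher one (27.2 ± 3.24 CPM with LPS, 11.6 ± 3.39 CPM without, 1.26 ± 0.22, edgeR adjusted p = 6.71e-05). Mkl2 (MRTF-B), one of its coactivators, was lower (10.2 ± 1.78 CPM with LPS, 29.3 ± 7.93 CPM without, -1.51 ± 0.24, adjusted p = 1.89e-05). Mef2d was lower as well (-0.88 ± 0.17, adjusted p = 2.61e-04). The remaining lower gene was Mef2a, named after its value was seen (-0.39 ± 0.12, adjusted p = 0.0126). The call of Mef2a was lost with DESeq2 (adjusted p = 0.0538), with the length trend removed (-0.20, 0.185), with replicates 1 and 2 summed (0.103), and without FTY720+LPS replicate 1 (0.0640), FTY720+LPS replicate 3 (0.0779) or FTY720 replicate 1 (0.0602). In each of these settings 2 upstream factors were lower, while 5 were lower without FTY720 replicate 3, and 2 were higher without FTY720 replicate 2.

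Of the 5 partners of Egr and Nr4a proteins 3 were lower and none higher, with a median of -0.44. Over all tested genes 22.7% were lower and 23.3% higher. Rxra, the retinoid X receptor that pairs with Nr4a1 and Nr4a2 but not Nr4a3, had 20.5, 28.3 and 37.5 CPM in FTY720+LPS libraries, against 108.1, 105.2 and 104.1 CPM in FTY720 libraries (-1.90 ± 0.16, edgeR adjusted p = 1.70e-09). Nab2, an Egr corepressor that Egr proteins themselves induce, had 11.8 ± 1.95 CPM with LPS and 35.9 ± 1.49 CPM without (-1.59 ± 0.19, adjusted p = 4.18e-07). Rxrb was lower by -0.44 ± 0.14 (adjusted p = 0.0113), a call lost without FTY720+LPS replicate 1 or 2 or FTY720 replicate 1, with DESeq2 (-0.41, adjusted p = 0.0711) and with replicates 1 and 2 summed (-0.39, 0.114). Nab1 and Rcor1, which encodes CoREST, were not called (0.14 ± 0.15 and 0.15 ± 0.18). Rxra and Nab2 were lower with LPS, as were Nr4a1, Nr4a2, Egr2 and Egr3, while Egr1 and Nr4a3 were higher. Whether these changes are linked was not tested.

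Immediate-early genes of other kinds, listed with earlier results of these data known, moved mainly upward. Of 23 listed genes 21 were tested, 13 were higher and 3 lower, with a median of 1.27. The shares over all tested genes were 23.3% higher and 22.7% lower. Pim1, a serine/threonine kinase, had 476.5 ± 19.9 CPM with LPS and 26.0 ± 1.75 CPM without (4.20 ± 0.13, edgeR adjusted p = 4.89e-18). Csrnp1, a nuclear protein, had 304.4 ± 52.0 CPM with LPS and 17.99 ± 1.52 CPM without (4.08 ± 0.15, adjusted p = 2.84e-16). Phlda1 had 51.4 ± 17.6 CPM with LPS and 2.98 ± 0.900 CPM without (4.09 ± 0.29, adjusted p = 4.61e-11). The 3 lower genes, named after their values were seen, were Sgk1 (-1.38 ± 0.11, adjusted p = 8.91e-10), Ctgf (-1.28 ± 0.15, 3.16e-07) and Plk3 (-0.75 ± 0.21, 0.00545).

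**Figure D4:**
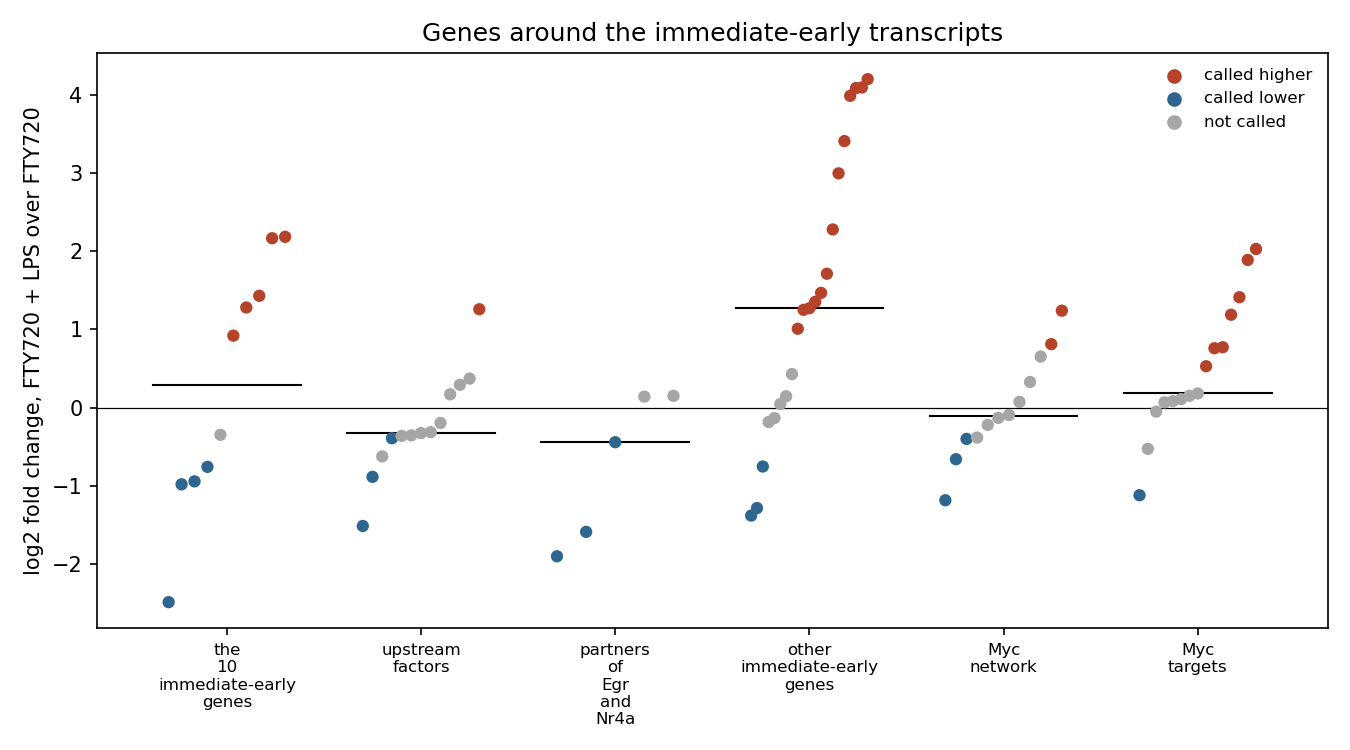
Log2 fold change, FTY720+LPS over FTY720, of each tested gene in the 10 immediate-early genes and in 5 lists around them; points are genes, coloured by call, and lines are medians. The medians run from -0.44 for the partners of Egr and Nr4a to 1.27 for the other immediate-early genes.

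Per kilobase of annotated exon, which lets genes be compared with each other, the order of levels differed between the groups. In FTY720+LPS libraries Ier3 led with 263 CPM per kb, followed by Ier2 (34.3) and Ier5 (30.7), whose ranges overlapped. Egr1 (6.64), Nr4a1 (4.25), Nr4a3 (2.99) and Egr2 (1.82) came next, each overlapping its neighbour, and Myc (1.78), Egr3 (1.43) and Nr4a2 (1.41) were lowest. In FTY720 libraries Ier3 led again with 58.4 CPM per kb, then Ier2 (18.04), with no overlap. Egr2 (10.5), Nr4a1 (8.06) and Ier5 (6.87) followed, overlapping in turn. Nr4a2 (2.84), Egr1 (2.74), Egr3 (2.42) and Myc (2.27) overlapped in turn as well, and Nr4a3 was lowest with 1.10. Egr2 ranked 7 of 10 in FTY720+LPS libraries and 3 of 10 in FTY720 libraries, and Nr4a3 ranked 6 with LPS and 10 without.

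**Figure D5:**
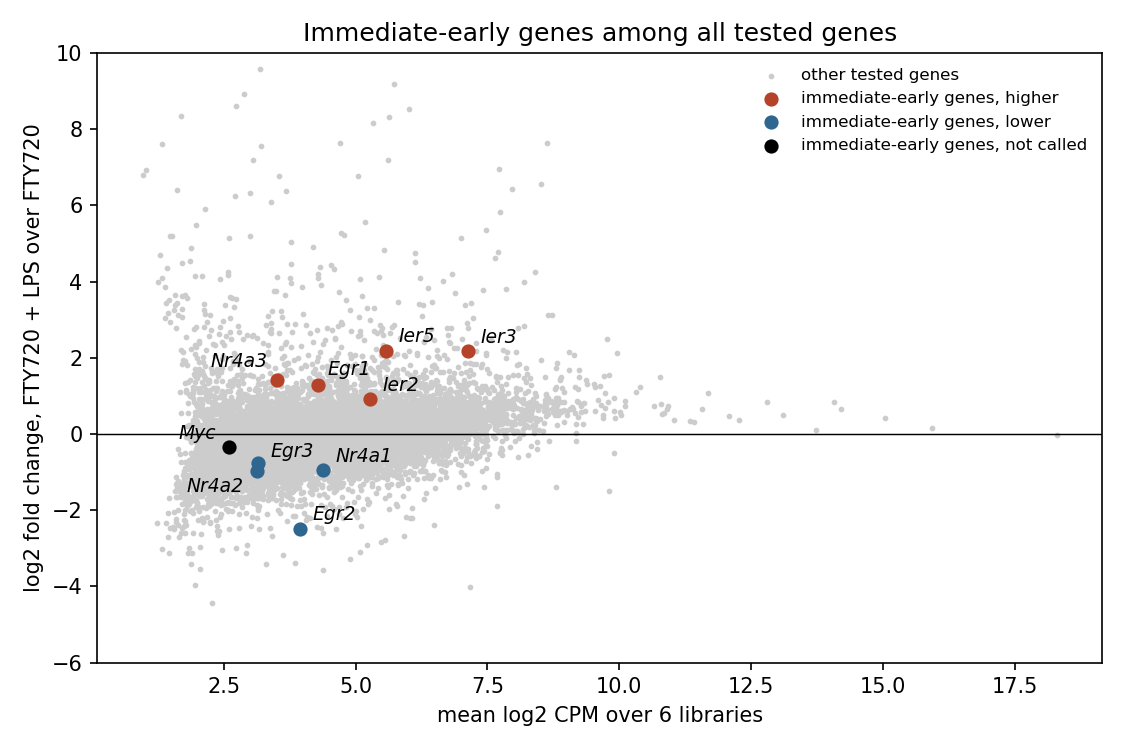
Log2 fold change, FTY720+LPS over FTY720, against mean log2 CPM over the 6 libraries for all tested genes (grey) and the 10 immediate-early genes (coloured by call). Egr2 lies below the bulk of genes of its level, Ier3, Ier5 and Nr4a3 lie near or above its upper edge, and Egr3, Nr4a1, Nr4a2 and Myc lie within it.

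The 3′ UTRs were searched for ATTTA, the pentamer of AU-rich elements that shorten transcript life. It was found in 8 of the 9 members with an annotated 3′ UTR used here and in 70.3% of 9545 tested genes. Ier3 held 5 copies in 613 bases (8.16 per kb), a density reached by 1.66% of tested genes, and Nr4a1 held 3 in 543 bases (5.53 per kb), reached by 5.09%. The tested median was 1.38 per kb. Egr2 held 3 copies in 1200 bases and Egr3 7 in 2645, while Nr4a2 had 2.26 per kb, Egr1 1.65, Nr4a3 1.62 and Ier5 0.933. Ier2 had none in 755 bases. Ier3 was higher with LPS and Nr4a1 lower. Transcript decay was not measured, and the part of the pentamer in these changes was not tested. The 30 bases with the most copies in these 3′ UTRs (GENCODE M21, capitals mark the pentamer) are shown because they are the densest stretches found.
Ier3, chr17: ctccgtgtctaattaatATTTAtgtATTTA
Nr4a1, chr15: gATTTAtatttgtgtattttcctggATTTA

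The genes most like each member over the 6 libraries were found by the smallest root-mean-square difference of centred log2 CPM among 8027 other tested genes. As 6 libraries in 2 groups share their treatment, likeness mostly reads the size of the group difference, and the correlations are given as a description. Egr2 was most like Mapkapk3 (difference 0.186, r = 0.991) and Gpr157 (0.275), both lower with LPS. Its nearest gene was farther away than that of any other member, whose values ran from 0.0408 to 0.154. Egr1 was most like Iffo2 (0.106) and Nup107 (0.107), and Egr3 was most like Mcm7 (0.0499) and Tyk2 (0.0598). Nr4a3 was most like Rhou (0.154) and Btg2 (0.158), the second being an immediate-early gene itself. Nr4a1 was most like Zdhhc8 (0.0677), and Nr4a2 was most like Kif3a (0.0979). Ier2 was most like the microglial transcripts C1qa (0.0408) and Lyz1 (0.0456), while Ier3 was most like Metrnl (0.0443). Ier5 was most like Fzd5 (0.126), and Myc was most like Pid1 (0.127).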

How the data were processed

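RNA-seq counts of 6 libraries were used, 3 of FTY720+LPS and 3 of FTY720. The authors deposited raw read counts per gene and strand in the STAR layout, which holds uniquely mapped reads. Per the submitters' processing notes the tools were STAR 2.5.1, Trimmomatic 0.33, CASAVA 1.8.2 and DESeq2, on mm10; the sources used here name no gene annotation. Sense counts held 98.4% to 98.9% of gene reads. Summary rows without a gene were dropped; as shares of listed reads, unmapped ones made up 24.4% to 27.0%, multimapping 7.69% to 8.15%, those off annotated exons 42.2% to 44.5% and ambiguous ones 0.0748% to 0.114%.

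The test was edgeR 4.0.16 (R 4.3.3) with TMM factors, filterByExpr (minimum count 10) and Benjamini-Hochberg adjustment over 10124 genes. SE is the absolute log2 fold change over the square root of F. CPM are TMM-scaled. Shares were compared by exact permutation over libraries (SciPy 1.17.1). Alternatives used limma 3.58.1, DESeq2 1.42.0, other scalings, filters, strands, trends and left-out libraries. GENCODE M21 (GRCm38, equal to mm10) gave positions and lengths; no annotated gene there overlapped any of the 10.

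The members and gene lists were chosen with earlier results of these data known. Named were all 10 members, of each other list the 3 called genes with the largest changes (mean log2 CPM 1 or more), and the 3 genes most like each member, of which 1 or 2 are printed. Genes withheld from the text are not reported here and are left out of the marker sums. Max, Nab1, Rcor1, Egr4 and the cell markers were named outside this rule. Other genes named beyond it are said to be so.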

Additional observations from a re-analysis of the deposited data

Results flagged for a closer look

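Ier5 had reads on the opposite strand in data that the comparisons above do not use: 10, 5 and 6 reads in FTY720+LPS libraries, 21 in all, against 0, 1 and 3 in FTY720 libraries, 4 in all. They were 2.92% of the reads at the gene in the FTY720+LPS group and 1.78% in the FTY720 group. The other 9 genes had 0 to 8 opposite-strand reads per group.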

How the results depend on the processing

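Over 19 alternatives, the 10 genes gave 187 values, of which 178 kept direction and side of the threshold, 9 kept direction but lost the call (6 for Egr3, 2 for Nr4a2 and 1 for Ier2) and none reversed. Log2 fold changes ran from 0.99 to 1.55 for Egr1, from -2.81 to -2.26 for Egr2, from -1.24 to -0.75 for Nr4a1, from 1.11 to 1.66 for Nr4a3, from 1.76 to 2.23 for Ier3 and from 1.89 to 2.36 for Ier5. With the stricter filter (at least 30 reads in every library of 1 group) Egr3, Nr4a3 and Myc were not tested. DESeq2 called 2 of the 10 genes lower in place of 4, and leaving out 1 library gave 2 (without FTY720+LPS replicate 2) to 4. Egr3 was also lost with replicates 1 and 2 of each group summed (-0.69, adjusted p = 0.104). That setting counts FTY720+LPS replicates 1 and 2, the closest pair, as 1 sample. It called 5 of the 10 genes higher and 3 lower. The counts of that pair differed with a chi-square per degree of freedom of 1.29, where counting error alone gives about 1. Other pairs within a group had values from 3.51 to 57.7. These 2 libraries thus differed by little more than counting error, and whether they are independent samples was not tested. Over all genes, total library size alone called 766 higher and DESeq2 called 1274 lower, against 2362 and 2297; leaving out 1 library gave 2043 to 2722 higher and 1700 to 2495 lower. With total library size alone, 1 Myc network gene and 4 Myc targets were higher. The causes were not tested. All 63 alternative values of the shares (unstranded counts, or 1 library left out) kept their direction. Same-numbered libraries of the 2 groups did not deviate together (correlations -0.0221, -0.0260 and -0.0725), and a replicate block gave 2292 higher and 2171 lower genes, with 5 and 4 of the 10. The weakest genes, under about 50 reads in a group, limit what depth can show.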
